A study of Mus musculus with 18 samples.

Results

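The 6 libraries of long-term haematopoietic stem cells (LT-HSCs) that had been cultured for 48 h at pH 7.4 were compared with each other, 3 libraries whose titles carry the number 707 against 3 whose titles carry 708. The numbers have the form of the first sequencing index of a Nextera library. The set called index 707 here holds replicates 1, 3 and 5, and the set called index 708 holds replicates 2, 4 and 6, so that the sets also divide odd- from even-numbered mice. These 6 libraries are part of a series of 18, made from 6 individual mice, in which LT-HSCs were taken fresh or after culture at pH 7.4 or pH 6.9. Its title links the pH of the medium to stem cell potential through polyamines. All 6 libraries came from wild-type mouse bone marrow (the strain is given as B6.SJL in one label and as c57 B6 WT in another), from animals aged 8 to 12 weeks. The culture medium was IMDM with 10% fetal bovine serum and the cytokines mSCF, GCSF and mTPO, given as 50 ng/ml, kept at 37 °C with 5% CO2 and 3% O2. No genotype, treatment or time in the labels separates the 2 sets. Library index, the individual mice and whatever was handled along with them cannot be told apart in this design. Each library was prepared from 100 sorted LT-HSCs, and the labels do not say whether the cultured cells were sorted again after the 48 h.

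LT-HSCs are the rare marrow cells that can rebuild every blood lineage after transplantation, and most of them are quiescent in the animal. With stem cell factor, thrombopoietin and G-CSF in the dish they enter the cell cycle, and part of their progeny begins to mature. Granulocyte-monocyte progenitors, which arise several steps later, fill their primary granules with myeloperoxidase and serine proteases, and the genes of these proteins are classic targets of the transcription factors PU.1 and C/EBP. Polyamines are small cations made from ornithine, and one of them, spermidine, is the donor for a modification that the translation factor eIF5A needs.

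The libraries held 1923443, 6957557 and 2561167 assigned counts in the index 707 set (replicates 1, 3 and 5) and 3880653, 5268967 and 6484978 in the index 708 set (replicates 2, 4 and 6). Between 11250 and 12243 genes had a count in the first set and between 12163 and 12792 in the second. Total count, genes detected, and the shares of the 20 highest genes, of ribosomal protein genes and of haemoglobin genes did not differ beyond the spread between libraries (exact two-sided permutation test, adjusted p 0.875 to 1, where the smallest raw p that 3 against 3 allows is 0.1). The index 707 libraries varied more among themselves. The biological coefficient of variation was 0.396 within them and 0.228 within index 708. Over the genes tested, log2 levels correlated at r between 0.8728 and 0.9055 for pairs within index 707, between 0.9523 and 0.9737 within index 708, and between 0.8683 and 0.9197 across the sets, as a description over genes of libraries that differ in depth. On the first principal component, which held 39% of the variance, index 707 replicate 5 stood apart at -68.24, with the other two of its set at -16.35 and -16.89 and the 3 index 708 libraries between 30.78 and 37.6.

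Across the transcriptome, 289 of 10201 genes tested (2.83%) differed between the sets at a Benjamini-Hochberg adjusted p under 0.05 in edgeR's quasi-likelihood test. Of these, 125 (1.23%) were higher and 164 (1.61%) lower in index 708. The changes were large in both directions, with 61 of the higher and 153 of the lower genes past 2-fold. For all 289 genes the 3 libraries of one set lay entirely above the 3 of the other. Without regard to the test, such separation occurred upwards in 14% and downwards in 13.5% of all genes tested, and the median log2 fold change (index 708 minus index 707) over all genes was -0.06. The count of called genes depended on single libraries, at 617 without index 707 replicate 5, 160 without index 707 replicate 1, 56 without index 708 replicate 2, 113 without index 708 replicate 4 and 46 without index 708 replicate 6. All 76 called genes that are named by rule kept their direction in each of the 6 leave-one-out fits, and 21 of them kept their call in every one.

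**Figure D1:**
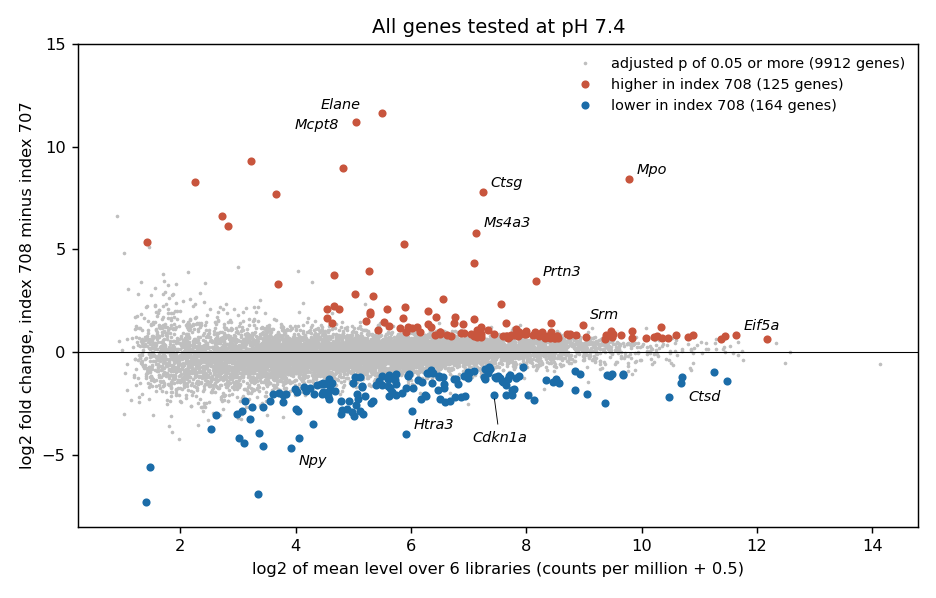
Each point is a gene, placed by the log2 of its mean level over the 6 libraries (CPM with 0.5 added) and by its log2 fold change, index 708 minus index 707. The 125 genes called higher are red and the 164 called lower are blue; the granule genes Mpo, Ctsg, Ms4a3 and Prtn3 lie far above the rest at their levels, and the fitted folds of Elane and Mcpt8, which had 0 counts in index 707, are no bounds.

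The largest rises included several genes of primary granules. Mpo, Elane, Ctsg and Ms4a3 were expressed in all 3 index 708 libraries and stood between 0 and 8.25 CPM in the 3 of index 707, whereas the 20 listed primary granule genes together summed to between 5599 and 9233 CPM in index 707 and to between 6507 and 9886 CPM in index 708. Levels are given throughout in CPM, a count relative to the TMM-scaled size of its library, for index 707 replicates 1, 3 and 5 and then index 708 replicates 2, 4 and 6. Mpo, which encodes myeloperoxidase (chr11:87793581-87804413, plus strand), stood at 8.25, 4.12 and 4.02 CPM against 1090, 1036 and 3161 CPM. The set means were 5.46 ± 2.42 and 1762 ± 1211 CPM (SD, n = 3 libraries each), a log2 fold change of 8.42 ± 0.57 (SE; edgeR adjusted p = 1.95e-04). The lowest index 708 library was thus far above the highest of index 707. Prtn3, the gene of proteinase 3 (chr10:79874476-79883174), was already present in index 707, at 32.0, 62.9 and 47 CPM, and stood at 393, 406 and 774 CPM in index 708 (log2 fold change 3.44 ± 0.33, adjusted p = 0.00153). Ctsg, cathepsin G (chr14:56099881-56102574), was at 0, 2.27 and 0.402 CPM against 186, 132 and 589 CPM (7.78 ± 0.79, adjusted p = 0.00207). Ms4a3, a membrane protein gene used as a marker of granulocyte-monocyte progenitors (chr19:11629496-11640851), was at 5.34, 6.11 and 2.41 CPM against 235, 174 and 416 CPM (5.81 ± 0.42, adjusted p = 1.95e-04). In each of these genes replicate 6 was the highest library.

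Neutrophil elastase and a mast cell protease gene had no count at all in index 707. Elane (chr10:79886247-79888215) was at 17.9, 35.4 and 215.6 CPM in index 708, and 0 counts in the 3 index 707 libraries together allow up to 0.259 CPM, the level of 3 counts over that set. Over the pooled counts of each set Elane stood at 104.8 CPM in index 708, at least 405-fold above that floor, a bound that falls to 108-fold without index 708 replicate 6 and to 159-fold without index 707 replicate 3. Its adjusted p was 0.0251 in edgeR and passed 0.05 when any index 707 library was left out, reaching 0.161. Mcpt8, a protease of basophil granules (chr14:56082166-56085273), stood at 75.7, 30.6 and 89.5 CPM, at least 255-fold above the same floor (100.2-fold without index 707 replicate 3; adjusted p = 0.00233). Mcpt8 and Ctsg lie near each other on chromosome 14, and Elane lies downstream of Prtn3 on chromosome 10. Hdc, which makes histamine, was at 0, 0 and 0.402 CPM against 20.3, 7.74 and 8.32 CPM, a ratio of 129 with a 95% counting interval from 22.9 to 5128 (adjusted p = 0.0144). Hp, haptoglobin, had 0 counts in index 707 and 5.20, 5.03 and 15.5 CPM in index 708. Nkg7, a granule membrane protein gene of cytotoxic and myeloid cells, was at 20.9, 22.5 and 9.64 CPM against 71.0, 53.2 and 107 CPM (2.11 ± 0.37, adjusted p = 0.017).

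**Figure D2:**
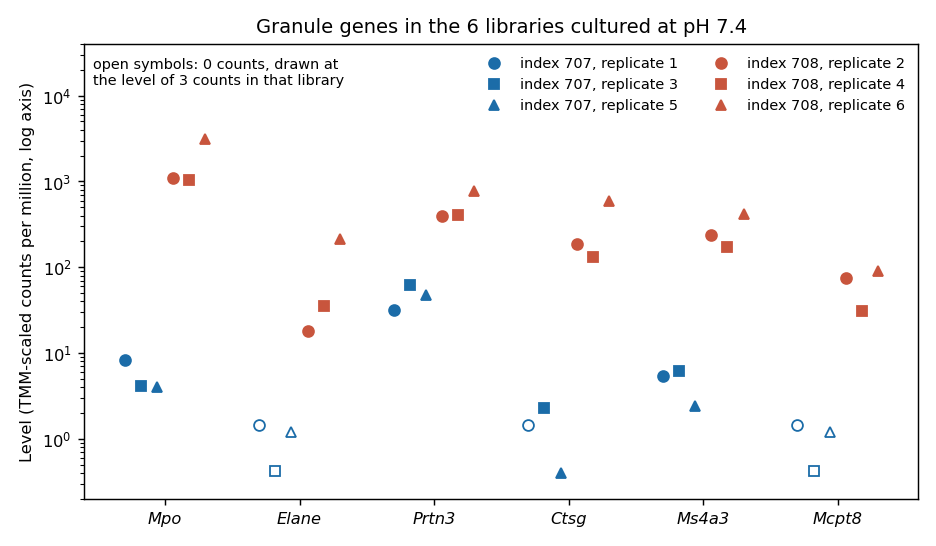
Levels of 6 granule genes in each library, in TMM-scaled CPM on a log axis, with index 707 in blue and index 708 in red; open symbols mark 0 counts and are drawn at the level of 3 counts in that library. For each gene the 3 index 708 libraries lie above the 3 of index 707, and for Elane and Mcpt8 all index 707 libraries are at 0.

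Of 20 primary granule genes listed, 19 were tested, and 8 were called higher and 2 lower in index 708. The shares called over all genes tested were 1.23% higher and 1.61% lower. The list's median log2 fold change was 2.11 beside -0.06 over all genes. The 8 called higher were Mpo, Elane, Prtn3, Ctsg, Ms4a3, Hdc, Hp and Nkg7. The 2 lower genes were Cd63 and Plac8. Cd63, a tetraspanin of lysosomes and granules, was at 3765, 2773 and 5850 CPM against 1505, 1761 and 1455 CPM (-1.39 ± 0.24, adjusted p = 0.017), and Plac8 was at 1084, 890 and 919 CPM against 449, 391 and 555 CPM (-1.05 ± 0.18, adjusted p = 0.0149). The remaining 9 did not pass the test, among them Igsf6 (2.40 ± 0.60, adjusted p = 0.0612), Prss57 (2.22 ± 0.75, adjusted p = 0.132) and Srgn, the proteoglycan that packs granule contents, with log2 fold change 0.03 ± 0.17. Secondary granule genes, which switch on later in neutrophil maturation, were hardly detected: 1 of 15 reached the filter, and it was not called. Of 17 listed transcription factors and regulators of the granulocyte-monocyte lineage 11 were tested, none was called higher, 1 was lower (Egr1), and the median was -0.24. Spi1, the gene of PU.1, was at 142, 210.3 and 183 CPM against 166, 203 and 149.8 CPM (adjusted p = 0.922), and Cebpb was at 137, 226.5 and 172 CPM against 79.5, 111 and 47.1 CPM (adjusted p = 0.0664). Several other members were low. Cebpa, the gene of C/EBP alpha, was at 0 CPM in all 3 index 707 libraries and at 2.60, 0.967 and 1.60 CPM in index 708, at least 6.33-fold above the floor (2.48-fold without index 707 replicate 3), and was too low to be tested. Cebpe was at 0 in index 707 and at most 0.320 CPM in index 708, and Gfi1 was at 0.971, 0 and 0 CPM against 4.68, 0 and 4.96 CPM; neither was tested. Irf8, which directs cells to the monocyte branch, was at 1.46, 10.2 and 0 CPM against 3.90, 5.81 and 4.80 CPM (adjusted p = 0.941), and Csf3r, the receptor of the G-CSF in the medium, had an adjusted p of 0.333, with sets that overlapped. Mpo, Prtn3, Ctsg, Ms4a3 and Mcpt8 kept their calls whichever library was left out, whereas Hdc lost its call without index 708 replicate 2 or 6 (adjusted p up to 0.111) and Nkg7 without index 707 replicate 1 or index 708 replicate 2 or 6 (up to 0.116). In limma-voom, Mpo, Ctsg and Mcpt8 did not pass (adjusted p = 0.134, 0.425 and 0.0585). Nor did they in edgeR with the spread estimated over 15 libraries, whereas Prtn3 and Ms4a3 passed both.

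The promoters of 4 of the 8 called granule genes hold the purine-rich core GAGGAA that PU.1 binds, and these stretches are shown because they place the letters relative to the gene start. The search covered the 250 bases before the RefSeq start on the GRCm38.p6 assembly, for GAGGAA or its reverse complement TTCCTC on either strand. Each line runs 5′ to 3′ along the gene's own strand, with the match in capitals.
Mpo: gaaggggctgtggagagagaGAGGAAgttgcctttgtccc
Elane: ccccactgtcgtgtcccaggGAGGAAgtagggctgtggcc
Prtn3: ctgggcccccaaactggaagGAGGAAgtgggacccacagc
Ctsg: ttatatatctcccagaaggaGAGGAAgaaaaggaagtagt
These windows are chr11:87793540-87793579 for Mpo (plus strand), chr10:79886207-79886246 for Elane (plus), chr10:79879552-79879591 for Prtn3 (plus) and chr14:56102771-56102810 for Ctsg (minus). The match starts 224 bases before the RefSeq start of Mpo, where a further match lies in the window. It starts 85 bases before the RefSeq start of Elane, 95 before that of Prtn3 and 216 before that of Ctsg. For Mpo, Elane and Prtn3 the RefSeq start lies inside the gene span given above, which is that of GENCODE. The Prtn3 window itself lies within that gene's GENCODE span. None of the 40-base windows overlaps an annotated exon. RefSeq gave a promoter for 7 of the 8 genes, and the other 3, Ms4a3, Hdc and Nkg7, had no match in the window. Over the whole list, 8 of 17 promoters (47.1%) held the letters, and so did 6252 of all 27025 mouse promoters (23.1%). A match of 6 letters is a description of the sequence.

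Among cell type markers, those of granulocyte-monocyte progenitors separated the sets most widely, and those of mature neutrophils stayed near 0. The 6 markers of granulocyte-monocyte progenitors were Mpo, Elane, Prtn3, Ctsg, Ms4a3 and Cebpe, all described above, so their sum restates those genes. These markers summed to 45.6, 75.4 and 54.2 CPM in index 707 and to 1923, 1784 and 5156 CPM in index 708. Neutrophil markers stayed between 0 and 2.56 CPM in index 707 and between 0 and 6.97 CPM in index 708, with Camp, S100a9 and Mmp8 at 0 in all index 707 libraries. The 5 monocyte markers summed to 33.0, 32.4 and 31.3 CPM against 25.0, 34.1 and 59.9 CPM, with Ly86 at 0 in all 6 libraries. Lymphoid markers summed to 1.28 CPM or less in index 707 and to between 1.60 and 8.06 CPM in index 708, with Rag1 and Cd79a at 0 in all 6. Mast cell and basophil markers summed to 88.8, 4.69 and 4.02 CPM against 178, 37.2 and 104 CPM, a sum that holds Mcpt8; Cpa3, the mast cell carboxypeptidase, was at 87.4, 4.69 and 4.02 CPM against 101.9, 6.19 and 14.4 CPM (adjusted p = 0.89), Fcer1a was at 0.160 CPM in 1 library and 0 in the other 5, and Prss34 was at 0 in all 6. Markers of LT-HSCs were present in every library, summing to 853, 1426 and 1481 CPM against 500.2, 703 and 387 CPM, and without Ly6a to 413, 405 and 394 CPM against 328, 361 and 276 CPM, with Mecom, Hlf, Meis1, Kit, Procr and Ly6a detected in all 6. In bulk RNA of this kind, more cells that express a gene and more RNA of it per cell cannot be told apart, which holds for every level given here.

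**Figure D3:**
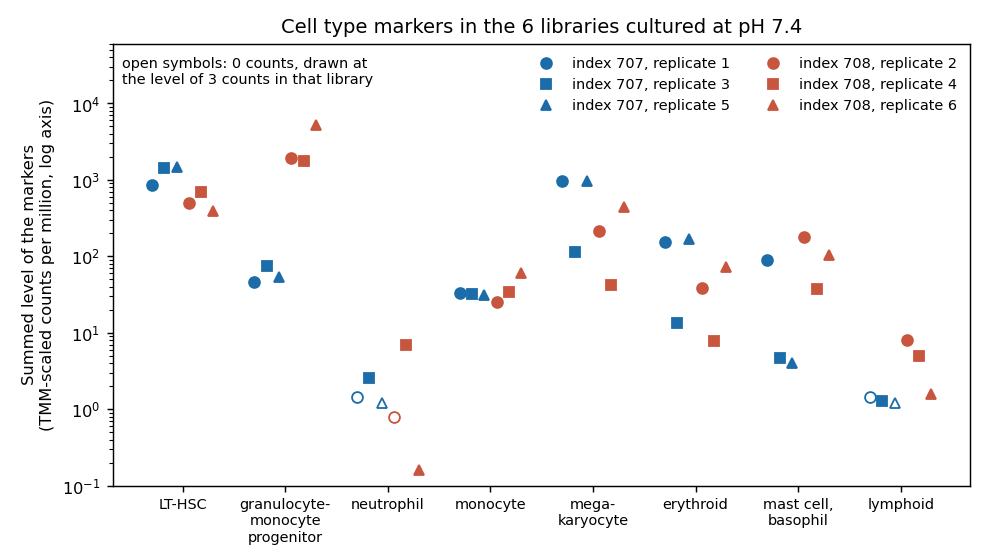
Summed level of each cell type's markers in each library, in TMM-scaled CPM on a log axis; open symbols mark sums of 0, drawn at the level of 3 counts in that library. Granulocyte-monocyte progenitor markers, which include the granule genes Mpo, Elane, Prtn3, Ctsg and Ms4a3, separate index 708 (red, 1784 to 5156) from index 707 (blue, 45.6 to 75.4). Megakaryocyte and erythroid markers vary within both sets, lowest in replicates 3 and 4.

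Other genes far higher in index 708 included Cd48 and Ccr2, which encode surface proteins. Cd48, which LT-HSCs lack at their surface and most progenitors carry, was at 2.91, 4.69 and 0 CPM against 122, 64.8 and 157 CPM (5.25 ± 0.62, adjusted p = 0.00337). Ccr2, a chemokine receptor of monocytes and their progenitors, had 1 count in index 707 and was at 17, 16.5 and 39.4 CPM in index 708, a ratio of 301 with a 95% counting interval from 53.7 to 11910 (adjusted p = 0.0037). Atp8b4, a lipid flippase gene, likewise had 1 count in index 707 and stood at 54.6, 36.8 and 74.4 CPM in index 708, a ratio of 657 (117.6 to 25970). Bcat1, the cytosolic branched-chain aminotransferase, had 0 counts in index 707 and 22.6, 16.6 and 13.6 CPM in index 708, at least 65.3-fold above the floor (25.6-fold without index 707 replicate 3; adjusted p = 0.00482). Pmaip1, the BH3-only death protein NOXA, was at 0, 0.284 and 0 CPM against 18.7, 5.22 and 15.5 CPM. Of these 5 genes only Pmaip1 lost its call when 1 library was left out, index 708 replicate 2 or 6 (adjusted p up to 0.0935).

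A few genes of stem cell identity and quiescence were lower in index 708, and most did not pass the test. Over all genes tested, 1.61% were called lower and 13.5% did not overlap downwards. Of 38 tested LT-HSC identity genes, 15 did not overlap downwards, 5 were called lower, none was called higher, and the median was -0.64. Those lower were Vldlr, Trim47, Pdzk1ip1, Ly6a and Tgm2. Vldlr, a lipoprotein receptor, was at 349, 328 and 326 CPM against 108, 104 and 68.0 CPM (-1.84 ± 0.21, adjusted p = 0.00286). Trim47 was at 191, 197 and 186 CPM against 47.3, 57.3 and 20.8 CPM (-2.20 ± 0.32). Ly6a, the Sca-1 antigen used to sort stem cells, was at 440, 1021 and 1087 CPM against 172, 342 and 111 CPM (-2.03 ± 0.43, adjusted p = 0.0348), while Pdzk1ip1, whose promoter is active mainly in HSCs, had a log2 fold change of -2.15 ± 0.37. The transcription factors at the core of the programme did not pass: Mecom was at 28.2, 24.4 and 24.5 CPM against 13.8, 19.7 and 15.2 CPM (adjusted p = 0.256), and adjusted p was 0.57 for Hlf, 0.622 for Meis1 and 0.339 for Hoxa9. Procr, the surface protein EPCR, was at 19.4, 16.6 and 16.87 CPM against 7.80, 13.2 and 4.80 CPM (adjusted p = 0.216), and Kit was at 169, 147 and 118 CPM against 109, 84.4 and 90.4 CPM (adjusted p = 0.12).

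Cdkn1a, the gene of the cell cycle inhibitor p21, was among the clearest of the lower genes. It stood at 209, 403 and 231 CPM in index 707 and at 60.8, 77.2 and 58.1 CPM in index 708 (-2.11 ± 0.27, adjusted p = 0.00518), so that the highest index 708 library lay below the lowest of index 707. Of 22 tested quiescence genes and cycle inhibitors 3 were lower, where 1.61% of all genes tested were called lower. None was called higher, and the median was -0.46. Beside Cdkn1a, the lower genes were Egr1, an immediate early factor linked to stem cell retention in the niche, at 86.4, 48.2 and 42.6 CPM against 19.0, 9.67 and 11.9 CPM (adjusted p = 0.017), and Foxo1, at 27.7, 17.2 and 21.3 CPM against 3.90, 6.58 and 5.44 CPM (adjusted p = 0.029; 0.0552 with the second index as a block). Txnip, a brake on glucose uptake, was at 113, 173 and 105 CPM against 60.8, 78.6 and 40.0 CPM (adjusted p = 0.0638 without and 0.0252 with that block). Cdkn1c had an adjusted p of 0.362. Of 27 tested p53 targets 1 was called higher, Pmaip1, and 1 lower, Cdkn1a itself, with a median of -0.47. These counts stand beside 1.23% called higher and 1.61% called lower over all genes tested. Cdkn1a, Vldlr and Trim47 were called whichever library was left out, whereas Egr1, Foxo1 and Pdzk1ip1 lost their calls without index 708 replicate 4 or 6, Egr1 and Foxo1 also without index 707 replicate 1, and Foxo1 and Pdzk1ip1 without index 708 replicate 2 (adjusted p up to 0.173).

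Pf4, Gata1 and Itga2b, genes of the megakaryocyte and erythroid lineages, varied within both sets and were lowest in the 2 libraries that share the second index 506. Pf4, platelet factor 4, was at 707, 70.6 and 686 CPM in index 707 and at 106, 8.13 and 312 CPM in index 708. The low values in each set belonged to replicates 3 and 4, the libraries with 506 in their titles. Gata1 followed with 132, 11.7 and 156 CPM against 32.5, 7.16 and 58.4 CPM, and Itga2b with 142, 18.8 and 107 CPM against 44.7, 13.7 and 41.0 CPM. None of the 3 passed the unblocked test (adjusted p = 0.445, 0.338 and 0.239). With the second index as a block, Pf4 (log2 fold change -2.28, adjusted p = 0.0229) and Gata1 (-1.43, adjusted p = 0.041) passed it, as did Gata2 (-1.25, adjusted p = 0.0216), which is at 277, 130 and 111 CPM against 106, 44.7 and 62.6 CPM and has an adjusted p of 0.1 without the block. The erythroid list as a whole did not follow this order, summing to 1978, 1454 and 3070 CPM against 1804, 1688 and 1672 CPM, with Car2, carbonic anhydrase, at 1451, 1144 and 2535 CPM against 1220, 1307 and 1045 CPM. The median over 18 tested megakaryocyte genes was -1.25, with 1 called, Itgb3, the beta chain of the platelet fibrinogen receptor, at 134, 66.2 and 215 CPM against 43.9, 32.3 and 38.9 CPM (adjusted p = 0.0298). Over 9 tested erythroid genes the median was -1.17, and the 1 called was Sphk1, at 2.43, 2.98 and 8.04 CPM against 0, 0 and 0.160 CPM (adjusted p = 0.0435; 0.0633 with the block). The share called lower over all genes tested was 1.61%. Among monocyte genes Csf1r, the M-CSF receptor, was lower in index 708, at 30.6, 27.42 and 26.5 CPM against 2.86, 7.16 and 1.60 CPM (adjusted p = 0.0188), as was the protease gene Ctss (-2.02 ± 0.40), while Ccr2 was higher. Rgs1, a regulator of G-protein signalling listed with mast cell genes, was at 274, 294 and 407 CPM against 81.1, 89.8 and 58.9 CPM (adjusted p = 0.00286), and Pecam1, an adhesion molecule of HSCs and endothelium, had a log2 fold change of -1.18 ± 0.22. Of Csf1r, Ctss, Itgb3, Sphk1, Rgs1 and Pecam1, Rgs1 alone kept its call in every leave-one-out fit. The other 5 lost it without index 708 replicate 2 and without index 708 replicate 6, and some of them also without index 708 replicate 4 (3 genes) or index 707 replicates 1, 3 or 5 (4, 2 and 1 genes), with adjusted p up to 0.236.

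Some genes of ribosome biogenesis and protein folding were higher in index 708, by smaller steps, and most members of these lists did not pass the test. Of 73 tested ribosome biogenesis genes 11 were called higher and none lower, 47 did not overlap upwards, and the median was 0.55. Over all genes tested, 1.23% were called higher and 14% did not overlap upwards. Npm1, nucleophosmin, was at 681, 934 and 721 CPM against 1757, 1699 and 1938 CPM (1.21 ± 0.17, adjusted p = 0.00741). Ncl, nucleolin, was at 920, 985 and 785 CPM against 1551, 1393 and 1523 CPM (0.73 ± 0.15, adjusted p = 0.0326). Rrp15 and Pno1, which process pre-ribosomal RNA, had log2 fold changes of 1.10 ± 0.18 and 1.09 ± 0.20, and the other 7 called were Ddx18, Lyar, Mrto4, Nip7, Noc4l, Nop16 and Rpf2. The finished ribosome's genes differed less: none of 81 cytosolic ribosomal protein genes was called and their median was 0.09. Of 78 mitochondrial ribosomal protein genes 1 was called, Mrpl12 (0.97 ± 0.17), with a median of 0.32. Among 20 tested chaperones 8 were higher and none lower, with a median of 0.62. These were 5 subunits of the chaperonin TRiC, Tcp1, Cct2, Cct5, Cct7 and Cct8, and the heat shock genes Hspd1, Hsp90aa1 and Hspa8. Tcp1 stood at 617, 638 and 571 CPM against 1135, 1209 and 1322 CPM (1.01 ± 0.15, adjusted p = 0.00909). Of 37 proteasome subunits 1 was called, Psmb7 (0.80 ± 0.18, adjusted p = 0.0415; 0.0551 with the second index as a block), with a median of 0.41.

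For the polyamine pathway, which the series' title names, 15 listed genes of synthesis and of the eIF5A modification were tested, of which 2, Srm and Eif5a, were higher in index 708, none was lower, and the median was 0.35. Among them 1 enzyme of synthesis was thus called, and 8 of the 15 genes did not overlap upwards. The shares over all genes tested were 1.23% called higher and 14% not overlapping upwards. Srm, spermidine synthase (chromosome 4), was at 316, 274 and 264 CPM against 626, 725 and 818 CPM (1.35 ± 0.17, adjusted p = 0.00482), and the sets were well apart. Eif5a, whose product carries the spermidine-derived modification, was at 2207, 2227 and 2475 CPM against 3915, 4310 and 4008 CPM (0.82 ± 0.14, adjusted p = 0.0144). Odc1, ornithine decarboxylase at the head of the pathway, was at 368, 301 and 327 CPM against 441, 445 and 458 CPM, without overlap but with an adjusted p of 0.146. Amd1, which supplies the aminopropyl donor, was at 246, 204 and 152 CPM against 226, 216 and 138 CPM (adjusted p = 0.926), and the spermine synthase gene Sms had an adjusted p of 0.172. None of 10 tested genes of polyamine breakdown, antizymes and transport was called, and their median was 0.05. Myc, a regulator of Odc1 and of ribosome genes, was at 440, 371 and 328 CPM against 625, 472 and 698 CPM (adjusted p = 0.0936), Mycn had an adjusted p of 0.918, and Mxd4, a MYC antagonist, was lower in index 708, at 27.2, 31.8 and 48.6 CPM against 11.4, 12.4 and 14.1 CPM (adjusted p = 0.0406). Of the 12 called genes named for ribosomes, chaperones, the proteasome, polyamines and the MYC network, Srm and Npm1 kept their calls in every leave-one-out fit. The other 10 all lost theirs without index 708 replicate 6, 9 without index 708 replicate 2, 7 without index 708 replicate 4, 5 without index 707 replicate 1 and 4 without index 707 replicate 3, with adjusted p up to 0.24.

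**Figure D4:**
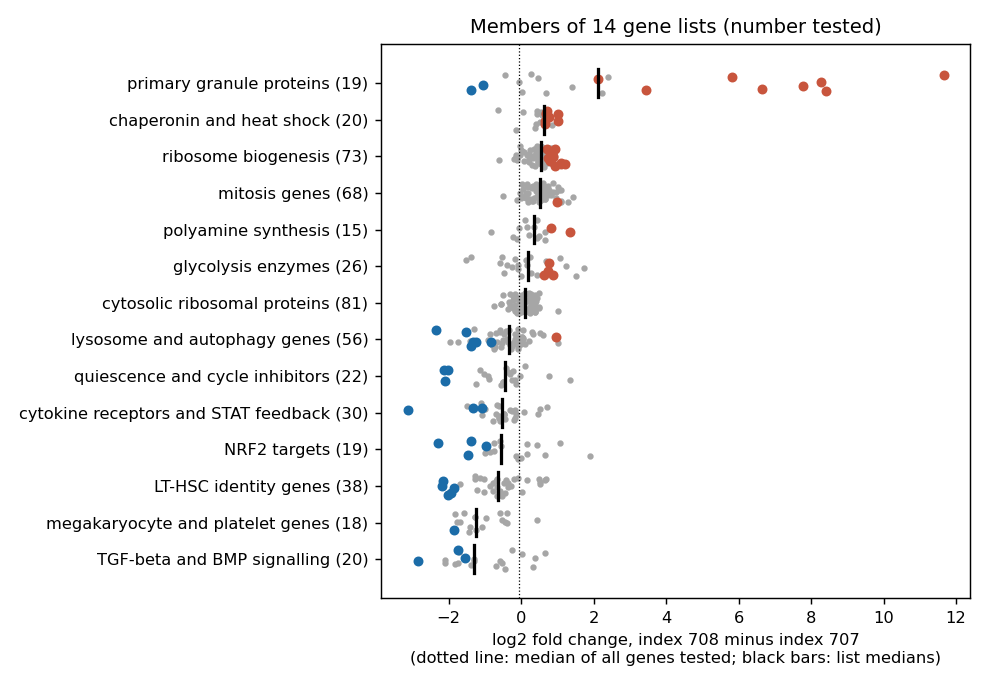
Log2 fold changes (index 708 minus index 707) of the tested members of 14 gene lists, with the number tested in brackets, members called higher in red and called lower in blue; black bars are list medians and the dotted line is the median of all genes. Primary granule genes reach the highest values (median 2.11), ribosome biogenesis and chaperone members lie mostly right of the line, and LT-HSC identity, megakaryocyte and TGF-beta members mostly left of it.

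Genes of 4 glycolytic enzymes were higher in index 708. Of 26 tested enzymes 4 were called, Gapdh, Pgk1, Pgam1 and Ldha, none was lower, and the median was 0.20. For this and the other metabolic lists, the share called higher over all genes tested was 1.23%. Gapdh was at 1976, 2115 and 2062 CPM against 3422, 3608 and 3470 CPM (0.77 ± 0.13, adjusted p = 0.0158). Egln3, a hypoxia-induced prolyl hydroxylase, was at 14.6, 21.6 and 10.9 CPM against 64.5, 50.5 and 70.4 CPM (1.95 ± 0.31, adjusted p = 0.0134); of 16 tested hypoxia genes it and Ldha were called, and the median of that list was -0.38. The respiratory chain differed little, with 3 of 76 nuclear-encoded subunits called higher, Cyc1, Uqcrfs1 and Cycs (log2 fold changes of 0.77, 0.78 and 0.89), and a median of 0.05. Idh3a of the citric acid cycle (0.82 ± 0.16) was the 1 called of 20. None of 31 cholesterol and fatty acid synthesis genes and none of 24 endoplasmic reticulum chaperones was called (medians 0.21 and 0.11). Psat1 and Shmt1, which make and use serine, were higher at 1.01 ± 0.20 and 1.40 ± 0.25. Slc16a1, a lactate and proton cotransporter, was at 154, 83.5 and 61.5 CPM against 240, 205 and 256 CPM (adjusted p = 0.0553, and 0.0425 with the second index as a block). None of 18 tested acid-base transport genes was called.

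None of 13 G1 cyclins and kinases was called, and mitosis and S phase genes had 1 call each, where 1.23% of all genes tested were called higher. Of 68 mitosis genes 1 was called, Birc5 (survivin), at 212, 249 and 155 CPM against 332, 438 and 464 CPM (adjusted p = 0.038). Of these 68 genes 64 had a positive log2 fold change, and the median was 0.53. Among them 27 did not overlap upwards, where 14% of all genes tested did not. Of 46 S phase genes 1 was called, the dUTPase gene Dut (0.69 ± 0.16, adjusted p = 0.0498; 0.0594 with the second index as a block), with a median of 0.15. Cenpa, the centromeric histone, was at 173, 213 and 176 CPM against 259, 304 and 320 CPM (adjusted p = 0.0713). Adjusted p was 0.84 for the proliferation marker Mki67, 0.852 for Ccnb2, 0.752 for Mcm5, 0.675 for Ccnd1 and 0.723 for Cdk6, and the sets overlapped for each. All 13 called genes named for metabolism and the cell cycle, from Gapdh to Birc5, lost their calls without index 708 replicate 2 and without index 708 replicate 6, 11 also without index 708 replicate 4, 9 without index 707 replicate 1 and 7 without index 707 replicate 3, with adjusted p up to 0.246.

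Ctsd, Sqstm1, Hmox1 and a few other lysosomal and antioxidant genes were lower in index 708, while most of both lists did not pass the test. Of 56 tested lysosome and autophagy genes 6 were lower (among them Ctsd, Sqstm1, Cd63, Ctsh and Grn), 1 was higher (Gusb, beta-glucuronidase, 0.97 ± 0.16), 49 did not pass, and the median was -0.33. Ctsd, cathepsin D, was at 2513, 2750 and 2078 CPM against 940, 1019 and 602 CPM (-1.52 ± 0.21, adjusted p = 0.00741). Sqstm1, the autophagy receptor p62, was at 587, 528 and 452 CPM against 255, 206 and 157 CPM (-1.34 ± 0.21). Of 19 NRF2 targets, the genes switched on by oxidative stress, 4 were lower, none was called higher, 15 did not pass, and the median was -0.55. Beside the counts of both lists, 1.61% of all genes tested were called lower and 1.23% higher. Hmox1, haem oxygenase, was at 348, 618 and 427 CPM against 62.7, 162 and 56.4 CPM (-2.31 ± 0.39, adjusted p = 0.0158). Gclm and Gclc, the subunits of the enzyme that starts glutathione synthesis, had log2 fold changes of -0.97 ± 0.16 and -1.38 ± 0.28, and Gstm1 of -1.48 ± 0.30. Of Ctsd, Sqstm1, Gclm, Hmox1 and Gstm1, Ctsd kept its call in every leave-one-out fit. The other 4 lost it without index 708 replicate 6, 3 of them without index 708 replicate 2, and 2 of them without index 707 replicate 3 or 5, with adjusted p up to 0.188.

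Receptors and signalling genes were mostly lower where they were called. For comparison with the counts in these lists, 1.61% of all genes tested were called lower and 1.23% higher. Of 30 cytokine receptor and STAT feedback genes 3 were lower, Stat3, Csf2rb and Csf2rb2, and the median was -0.54. Csf2rb2 was at 26.7, 59.0 and 84.4 CPM against 8.06, 6.58 and 4.96 CPM (-3.13 ± 0.44), but reads of this gene can be assigned to its near-identical neighbour Csf2rb, so the split between them is uncertain. Of 20 TGF-beta and BMP genes 3 were lower, Id3, Skil and Bmpr2, none was called higher, and the median was -1.30. Id3, an inhibitor of helix-loop-helix factors (chr4:136143497-136145755), was at 62.1, 78.7 and 40.2 CPM against 10.1, 10.3 and 4.96 CPM (-2.85 ± 0.38, adjusted p = 0.0067). Of 22 adhesion and homing receptors 4 were lower, among them Itgb5 (69.9, 53.4 and 21.3 CPM against 5.46, 9.48 and 2.88 CPM, adjusted p = 0.0171), Itgb3, Itga6 and the selectin ligand gene Selplg, while 2 were higher, among them Emb. Among 13 immediate early genes Egr1 and Junb were lower (Junb adjusted p = 0.0398, and 0.0579 with the second index as a block). None of 31 interferon response genes was called, and their median was -0.38. Id3 kept its call in every leave-one-out fit, whereas Stat3, Csf2rb, Csf2rb2, Junb, Itgb5, Skil and Bmpr2 lost theirs without index 708 replicate 6, 6 of them without index 708 replicate 2, 5 without index 708 replicate 4, 3 without index 707 replicate 1 and 3 without index 707 replicate 3, with adjusted p up to 0.231.

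The genes with the largest falls from index 707 to index 708 included Htra3, Npy and Fstl3. Htra3, a secreted serine protease, was at 105, 144 and 90.0 CPM against 11.4, 6.00 and 4.32 CPM (-4.0 ± 0.38, adjusted p = 0.00153). Npy, neuropeptide Y, was at 19.4, 20.9 and 44.2 CPM against 1.82, 0.194 and 1.28 CPM (-4.68 ± 0.66, adjusted p = 0.00741). Fstl3, a binder of activin, was at 20.4, 18.8 and 20.1 CPM against 1.04, 0.581 and 0.80 CPM (-4.59 ± 0.51), and its exons overlap those of Prss57 on the opposite strand, whose reads an unstranded library cannot separate. Olfm2 and Thbs2, both secreted glycoproteins, the co-repressor Tle2, the SOCS-box protein gene Spsb1 and the tight junction gene Tjp3 had log2 fold changes between -4.44 and -3.25. Ifitm10 (adjusted p = 0.0417) and Atp8b1 (0.0351) were lower as well, but reached adjusted p of 0.0551 and 0.0611 with the second index as a block. Htra3, Npy and Fstl3 were called whichever library was left out. The other 7 of these 10 genes lost their calls without index 708 replicate 6, 6 without index 708 replicate 2, 4 without index 708 replicate 4, 3 without index 707 replicate 1, 4 without index 707 replicate 3, and 1 without index 707 replicate 5, with adjusted p up to 0.213. Of the 76 called genes named by rule, 31 share exon sequence with another annotated gene, 25 of them on the opposite strand.

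The same division of the mice was then set against the cells cultured at pH 6.9, where odd-numbered mice carry index 705 and even-numbered mice index 706. The pH 6.9 contrast was taken as index 706 minus index 705, over 5 libraries, since replicate 3 of index 705 had fewer than 10000 genes detected. The 2 contrasts share no library, but they come from the same mice. The interaction test called 1930 of 11054 genes (17.5%), 962 more positive and 968 more negative at pH 7.4. Of the 289 genes called at pH 7.4, 254 had a called interaction, 247 had the opposite sign at pH 6.9 and 42 the same sign. Over all genes 61.6% had opposite signs. At pH 6.9 itself 1555 genes were called, among them 167 of the 289, of which 164 had the opposite sign and 3 the same. With replicate 3 of index 705 included, the interaction was called for 605 genes.

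Srm and Cdkn1a show how the 4 sets stood. Srm was at 316, 274 and 264 CPM in index 707 and 626, 725 and 818 CPM in index 708, and, at pH 6.9, at 737 and 787 CPM in index 705 and 288, 193 and 195 CPM in index 706. Cdkn1a, at 209 to 403 CPM in index 707 and 58.1 to 77.2 CPM in index 708, was at 111 and 82.5 CPM in index 705 and at 224, 286 and 287 CPM in index 706. For both genes the odd-numbered mice at pH 7.4 were near the even-numbered mice at pH 6.9. The interaction was 3.12 ± 0.27 for Srm (adjusted p = 8.51e-06) and -3.57 ± 0.38 for Cdkn1a (adjusted p = 2.58e-05) on the log2 scale. Eif5a, Ncl, Odc1 and Slc16a1 had interactions between 1.55 and 2.25, and Txnip and Gata2 had -2.41 and -2.70. The mitotic genes Ccnb2 and Cenpa, uncalled at pH 7.4, were at 16.3 and 52.0 CPM and at 8.16 and 42.4 CPM in index 705 and at 294 to 405 CPM and 148 to 183 CPM in index 706, with interactions of -3.18 ± 0.43 and -1.95 ± 0.52. With all 12 cultured libraries, Gata2 (adjusted p = 0.058), Ccnb2 (0.149), Cenpa (0.393), Eif5a (0.418) and Slc16a1 (0.0728) no longer passed.

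In the 5 pH 6.9 libraries of that test, Mpo, Elane, Prtn3, Ctsg, Ms4a3 and Mcpt8 lay below every index 708 library. Replicate 3 of index 705, left out of it with 8925 genes detected, stood apart, with 415 CPM of Ctsg, 248 of Ms4a3, 116 of Prtn3, 59.3 of Mcpt8, 50.9 of Mpo and 19.0 of Elane (CPM of the plain total, without TMM scaling). Prtn3 was at 139 and 157 CPM in index 705 and at 34.2, 31.7 and 21.9 CPM in index 706, the reverse order of odd and even mice from pH 7.4, with an interaction of 5.82 ± 0.44 (adjusted p = 6.58e-06). Mpo was at 21.3 and 0.986 CPM against 1.18, 10.1 and 6.66 CPM (interaction 8.64 ± 1.72, adjusted p = 0.0111), and without index 705 replicate 1 the adjusted p was 0.119. Ctsg was at 3.77 and 8.59 CPM against 0, 0 and 0.196 CPM (13.57 ± 1.48, adjusted p = 1.74e-04), and Ms4a3 was at 3.77 and 3.80 CPM against 15.3, 3.97 and 5.48 CPM (4.87 ± 0.78, adjusted p = 7.70e-04). Ctsg was near 0 in both index 706 and index 707, so the fitted size of its interaction, here and below, is no bound. The interaction of Elane did not pass (adjusted p = 0.432), nor did that of Mcpt8, whose SE was 17850. With replicate 3 of index 705 included, the interactions were 10.75 for Mpo (adjusted p = 0.00491), 18.7 for Ctsg (0.00553), 9.95 for Ms4a3 (0.0192) and 5.92 for Prtn3 (2.44e-04). Of the fresh libraries, 4 passed the limit on genes detected that left out replicate 3 of index 705. Fresh replicates 1 and 4 did not, with 3035 and 9408 genes detected. The 4 fresh libraries spanned a similar range to the 2 cultured sets together, with Mpo at 4.28, 21.9, 82.6 and 2995 CPM. The highest value was that of fresh replicate 5, which also had 300.2 CPM of Elane, 694 of Ctsg, 535 of Ms4a3 and 143 of Mcpt8 (also CPM of the plain total).

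**Figure D5:**
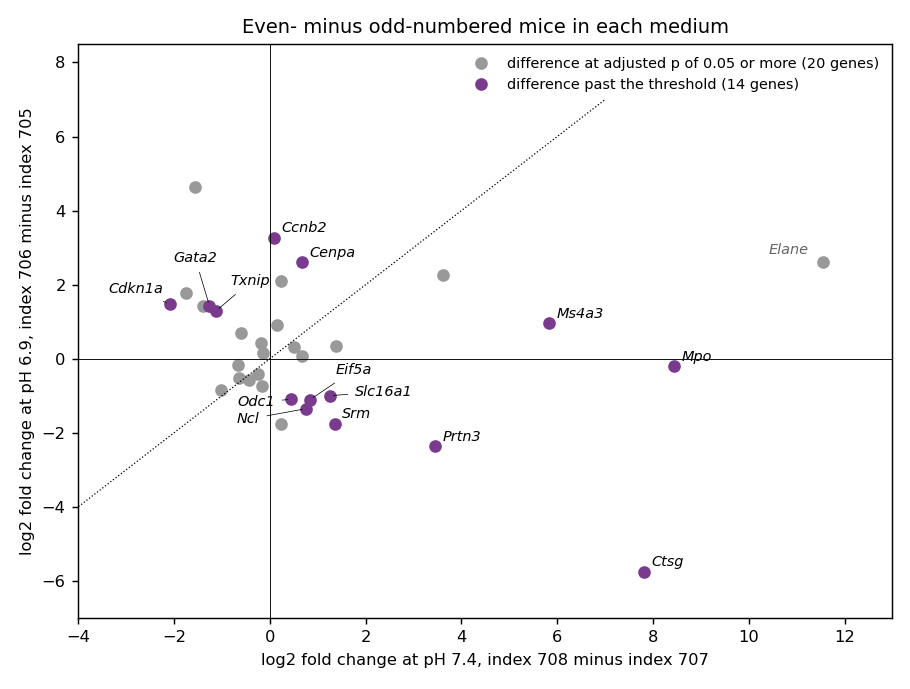
Log2 fold change of even- minus odd-numbered mice for 34 genes of granules, stem cells, lineages, cell cycle and polyamines, at pH 7.4 (horizontal, index 708 minus index 707) and at pH 6.9 (vertical, index 706 minus index 705); the dotted line marks equal values. The 14 genes with a called interaction are purple and lie off the line, Srm, Eif5a, Ncl and Prtn3 below 0 at pH 6.9 and above 0 at pH 7.4, Cdkn1a, Txnip and Gata2 the other way.

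Over whole libraries, index 707 correlated about equally with index 706, with index 708 and with fresh libraries of index 701, in overlapping ranges. On a scale shared by 15 libraries, index 707 libraries correlated with index 706 libraries of pH 6.9 at a mean r of 0.9088 over 9 pairs (0.8803 to 0.9252). Their mean r was 0.9061 with index 708 (0.8878 to 0.9273) and 0.9036 with fresh libraries of index 701 (0.8884 to 0.9167). It was 0.8979 with each other, 0.8807 with fresh libraries of index 702 and 0.8585 with index 705. Index 708 libraries correlated with each other at 0.9634, with fresh libraries of index 701 at 0.9461 (6 pairs, 0.9308 to 0.9624), with fresh libraries of index 702 at 0.9254, with index 706 of pH 6.9 at 0.908 and with index 705 at 0.8927. These are descriptions over genes, of libraries that differ in depth. Differences between the mice, the index, the handling, or an exchange of library labels between sets cannot be told apart here, and no label was checked by a targeted gene or genotype.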

How the data were processed

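RNA of 100 LT-HSCs per library was made into unstranded libraries without molecular identifiers (SMART-Seq v4, Nextera XT) and sequenced as 75-base read pairs, per the labels' protocols. The authors deposited 1 table of expected counts per gene symbol, made with kallisto on mm10 per the submitters' processing notes; its version and annotation are not named in the labels. The values are not whole and were rounded. Sets were read from the first number in each title.

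Genes passing filterByExpr were scaled by TMM and tested with edgeR's robust quasi-likelihood test on the 6 libraries (edgeR 4.0.16, limma 3.58.1, DESeq2 1.42.0, R 4.3.3), with Benjamini-Hochberg adjustment over all genes tested and a threshold of 0.05. The scripts were tested on simulated counts. The interaction with pH used 11 of the 12 cultured libraries, leaving out 1 with fewer than 10000 genes detected. Members and lists were chosen with earlier results of these data known. Named were up to 12 called genes per direction with the largest fold change, at 10 CPM or more in 1 set and without overlap, up to 3 called members of each list described, and 36 genes of fixed interest; further called members are named where a list's count includes them. A few genes that the rule names are not reported here. Lists were described by counts and medians, without a set test. Replicates are separate mice, so p-values measure the spread between mice and their handling. Counting intervals are exact at 95% and, like floors of 3 counts, cover counting error only.

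Libraries of the 2 sets with the same second index deviated together over genes (r = 0.128 for 505, 0.149 for 506 and 0.108 for 507, each best matched by its own partner), so the fit with that block is printed where it changes a call. No 2 libraries were near-duplicates (chi-square per degree of freedom at least 8.48). Gene positions are those of GENCODE M21 (GRCm38) and promoters those of RefSeq (GRCm38.p6).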

Additional observations from a re-analysis of the deposited data

Results flagged for a closer look

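The contrast between even- and odd-numbered mice differed between pH 7.4 (index 708 minus index 707) and pH 6.9 (index 706 minus index 705), which share no library. An interaction test in edgeR over 11 libraries called 1930 genes. Among the genes described here, the difference of log2 fold changes, pH 7.4 minus pH 6.9, was 8.64 for Mpo, 13.57 for Ctsg, 4.87 for Ms4a3 and 5.82 for Prtn3. It was -3.57 for Cdkn1a, -2.70 for Gata2, -2.41 for Txnip, -3.18 for Ccnb2 and -1.945 for Cenpa. It was 3.12 for Srm, 1.545 for Odc1, 1.945 for Eif5a, 2.10 for Ncl and 2.25 for Slc16a1. The mice, the indices and the handling of each set cannot be told apart.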

How the results depend on the processing

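The count of 289 genes that differed between the index sets was 295 with DESeq2's size factors in edgeR, 295 with a filter of 5 CPM in 3 libraries and 358 with the spread estimated over 15 libraries. It was 505 without a filter, 876 in DESeq2's Wald test, 689 in limma-voom with quality weights and 63 when edgeR tested against a 1.5-fold change. With all 18 libraries in the fit, those with few genes detected included, edgeR called 0 genes. In that fit 493 genes had an unadjusted p under 0.05, and all 289 kept their direction. Leaving out 1 library gave between 46 (without index 708 replicate 6) and 617 genes (without index 707 replicate 5). The fit with the second index as a replicate block called 301 genes, and of the 76 called genes that the naming rule gave it kept 69, the lost ones being given with their values in the report. Of those 76, 60 were kept over 15 libraries, 69 in limma-voom, 74 without a filter, 72 with the stricter one and 31 against a 1.5-fold change. Elane had an adjusted p of 0.157 over 15 libraries, 0.598 in limma-voom and 0.312 without a filter. Mpo, Ctsg and Mcpt8 also lost their calls over 15 libraries (adjusted p = 0.066, 0.0772 and 0.126) and in limma-voom (0.134, 0.425 and 0.0585). Prtn3 and Ms4a3 kept theirs in both. Genes not called at pH 7.4 changed sign in some leave-one-out fits, with log2 fold changes from -0.36 to 2.78 for Irf8, -0.49 to 0.0202 for Ccnd1, -0.40 to 0.027 for Cdk6, -0.15 to 0.41 for Mki67, -0.0191 to 0.16 for Ccnb2 (-0.0133 in limma-voom), -0.40 to 0.0318 for Mcm5 and -0.38 to 2.28 for Mycn. The 1930 interaction calls became 605 with all 12 cultured libraries and 1387 to 2121 with 1 library left out. With mouse number as a replicate block 1630 were called; the deviations of libraries of the same mouse correlated across pH at 0.14 and 0.131 for mice 4 and 6 and between -0.084 and 0.026 for mice 1, 2 and 5. With DESeq2's size factors the median of 7 lymphoid priming genes went from -0.011 to 0.0062. The interaction also lost its call over 15 libraries for Mpo (adjusted p = 0.103) and Ms4a3 (0.147), in limma-voom for Mpo (0.314), Ctsg (0.247) and Ms4a3 (0.0734), and without a filter for Cenpa (0.0542). The causes of these changes were not tested. Depth limits the zeros: 3 counts correspond to between 0.426 and 1.46 CPM in a single library, so genes at 0 in index 707 may be present below that.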

Other observations

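Outside the gene lists, 16 further genes kept their calls at pH 7.4 whichever of the 6 libraries was left out; they are named here after their values were seen. Ap3s1, a subunit of the AP-3 adaptor that sorts cargo to lysosome-related organelles, was at 55.3, 51.6 and 82.0 CPM in index 707 and at 277, 244 and 422 CPM in index 708 (log2 fold change 2.33 ± 0.27, edgeR adjusted p = 0.00313). Clec12a, a C-type lectin receptor, was at 6.80, 14.6 and 9.24 CPM against 43.7, 74.5 and 92.2 CPM, Clec4e at 44.7, 22.9 and 14.1 CPM against 171, 134 and 174 CPM, and Fcgr2b, the inhibitory Fc receptor, at 6.31, 8.81 and 8.44 CPM against 53.8, 43.9 and 70.8 CPM. Anxa2 and Anxa3, annexins that bind membranes in the presence of calcium, had log2 fold changes of 1.72 and 3.75, Fabp5, a fatty acid carrier, 2.19, and Mlkl, the effector of necroptosis, 1.69.

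The 8 of these genes that were lower in index 708 included Ctla2a and its neighbour Ctla2b, inhibitors of cathepsin-type proteases with similar sequences that counting may split unevenly. Ctla2a was at 1615, 2169 and 3228 CPM against 553, 595 and 413 CPM (-2.17 ± 0.26, adjusted p = 0.00337) and Ctla2b had a log2 fold change of -1.79. Rgs12, a regulator of G-protein signalling, was at 94.2, 96.3 and 147 CPM against 18.7, 15.1 and 13.5 CPM (-2.84 ± 0.27, adjusted p = 0.00153). S1pr1, the receptor that guides cells towards sphingosine 1-phosphate in blood, was at 92.2, 64.2 and 100.0 CPM against 23.7, 20.3 and 15.7 CPM (-2.10 ± 0.27). Gsn (gelsolin), Lpcat2, Mmp14 and Bhlhe40 had log2 fold changes of -2.36, -2.41, -2.29 and -1.72.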
